A study of Mus musculus with 2 samples.

Results

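B cells were examined among the CD45+ cells isolated from mouse colorectal cancer liver metastases and profiled by droplet single-cell RNA sequencing (10x Genomics 3′ v3.1). The members were selected on measured values: a cell with at least 200 detected genes, at most 10% mitochondrial UMIs (unique molecular identifiers, 1 per captured mRNA molecule), at most 30000 UMIs and at most 6000 genes was taken as a B cell when it held at least 1 UMI of Cd79a and at least 1 UMI of Ms4a1, Cd79b, Pax5, Ebf1 or Bank1, with 0 UMIs of Cd3e, Csf1r, Siglech and Flt3. The rule found 938 B cells among 19999 filtered cells, 209 of 9814 in the Ctrl library and 729 of 10185 in the KD library. Ctrl cells came from metastases of MC38-LM3b carrying shScramble, and KD cells from metastases of MC38-LM3b carrying shSLAMF3, where MC38-LM3b is a liver-metastatic derivative of the MC38 mouse colon cancer line. Per the methods, tumour cells were injected into the spleen of C57BL/6 mice 6 to 8 weeks of age and the livers were taken 2 weeks later. The lesions of 3 mice were pooled into each library, so there was 1 library per group, no spread between mice could be measured, and no test between Ctrl and KD was possible. The hairpin was in the injected tumour cells and the B cells were those of the host, whose own Ly9, the gene of SLAMF3, was not targeted. Every interval below is a 95% interval of counting error only.

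A B cell displays a membrane immunoglobulin as its antigen receptor, with the Cd79a and Cd79b chains carrying the signal inside, and each clone keeps its own rearranged heavy and light chain. Naive follicular B cells carry IgM and IgD together and recirculate through blood and lymphoid tissue under Ccr7 and Cxcr5, whereas plasma cells shed most surface receptors and turn their transcriptome over to secreted antibody. In liver and in tumours, B cells can present antigen on MHC class II, secrete cytokines and respond to interferons.

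The label was checked with 15 B cell genes that the rule did not use. All 15 had a higher level in the B cells than in Cd3e+ cells in both libraries, by at least 5.09-fold in Ctrl and 4.14-fold in KD, with Cd37 the lowest and a median of 252-fold and 150-fold. Against Csf1r+ cells, 14 of 15 were higher in Ctrl and 15 of 15 in KD, and Cd72, an inhibitory receptor, was the lowest at 0.825-fold and 1.47-fold. Ly6d was detected in 83.7% of the B cells in Ctrl and 82.7% in KD. Ighd, the IgD heavy chain, was detected in 59.8% and 72.4%, against 0.505% and 0.962% of Cd3e+ cells. Immunoglobulin transcripts were also counted outside B cells. Igkc was found in 24.8% of Cd3e+ cells in Ctrl and 20.5% in KD, at median depths of 7036 and 5618.5 UMIs, against 90.4% and 95.9% of B cells at 2691 and 2629 UMIs.

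The edges of the rule were as follows. Cd79a was held by a single UMI in 46 Ctrl and 145 KD members, and a single partner gene was found in 5 and 12 of them, whereas all 5 partner genes were found in 63 and 241. Just outside, 41 Ctrl and 109 KD cells met the B cell criteria but carried an excluded gene. Those with Cd3e had a median of 8344 UMIs in Ctrl and 6174.5 in KD, and those with Csf1r 8131.5 and 9139, above the medians of the members. Another 41 and 111 cells held at least 2 partner genes and no Cd79a UMI, at medians of 1610 and 2120 UMIs. Of all barcodes, 27 occurred in both libraries and none of them was a B cell in both.

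B cells made up a larger share of the KD library than of the Ctrl library. They were 2.13% of filtered cells in Ctrl (1.85 to 2.44, exact Clopper-Pearson) and 7.16% in KD (6.66 to 7.68), a ratio of 3.36 (2.88 to 3.94). Among cells with a Ptprc UMI, the gene of CD45, the shares were 1.96% and 6.35%. Granulocytes were more frequent in the KD library, and among cells with fewer than 3 granulocyte UMIs the shares were 2.22% and 8.87%. Per 100 Cd3e+ cells there were 7.03 B cells in Ctrl and 43.8 in KD, a ratio of 6.23 (5.33 to 7.30), with 2971 Cd3e+ cells in Ctrl and 1664 in KD. The direction was the same with each denominator, and the size depended on which other cells were counted. A difference between pools of mice cannot be told apart here from a difference between Ctrl and KD.

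**Figure D1:**
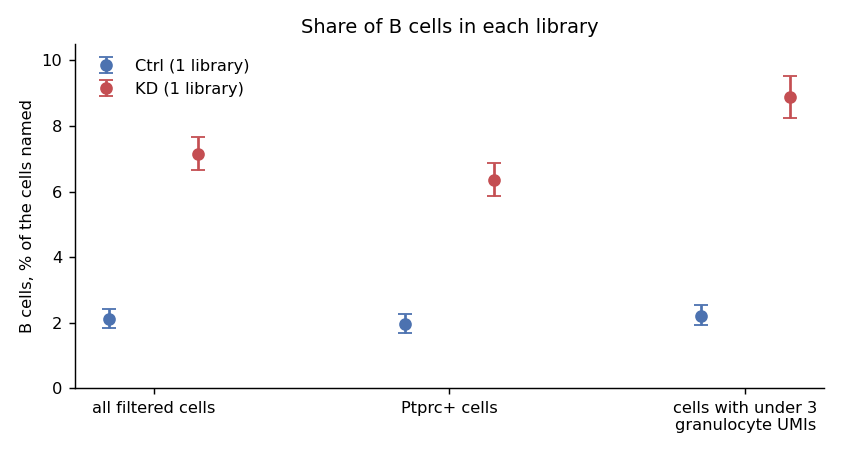
B cells in the Ctrl and KD libraries as a percent of filtered cells, of cells with a Ptprc UMI and of cells with fewer than 3 granulocyte UMIs, with bars for exact 95% intervals of counting error. KD lies above Ctrl with every denominator, from 1.96% against 6.35% to 2.22% against 8.87%.

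The B cells of the 2 libraries were of similar depth. Total UMIs per B cell ran from 884 to 17572 in Ctrl and from 526 to 19745 in KD, with 1350 and 1300 genes at the median and 2.10% and 3.02% mitochondrial UMIs. In all, 684057 UMIs stood behind the Ctrl values and 2316576 behind the KD values. RNA of other cell types was also counted in these droplets. At least 1 UMI of 8 genes of other cell types was found in 106 Ctrl members (50.7%) and 292 KD members (40.1%). T cell genes were found in 30 and 47 members, C1q genes of macrophages in 84 and 235, and Csf3r of granulocytes in 7 and 37. Siglech, also among the 8 genes, was at 0 by the rule. Over whole marker lists, 13 T cell genes summed to 174 and 420 UMIs with Cd3e at 0 by the rule, 14 macrophage or monocyte genes to 727 and 3234 with Csf1r at 0 by the rule, and 11 granulocyte genes to 957 and 15587 with Mpo at 0. The granulocyte sum per UMI was 2.27 log2 higher in KD B cells, and S100a8 was found in 5.91% and 21.0% of B cells after each cell was thinned at random to 1500 UMIs, against 3.09% and 14.3% of Cd3e+ cells. Dendritic cell genes gave 24 and 52 UMIs, endothelial genes 131 and 894, NK genes 49 and 394, erythroid genes 5 and 5, fibroblast or tumour genes 19 and 93, and 7 of 8 hepatocyte genes were at 0. The part of this RNA in the results below was not tested. Values without the members that carried any of the 8 genes, which left 103 and 437 cells, stand beside the results they touch. These cells still carried some such RNA, with S100a9 in 9.71% (Ctrl) and 39.8% (KD) and Lyz2 in 26.2% and 26.5%.

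Most B cells had the transcript pattern of naive cells, with Ighm and Ighd together. Leaving aside the plasma-like cells described next, both were detected in 59.4% of 207 Ctrl cells and 72.2% of 723 KD cells, Ighm without Ighd in 37.2% and 26.0%, and neither in 5 and 7 cells. Any switched isotype (Ighg or Igha) was found in 7 of 207 and 11 of 723 cells, and 3 or more switched UMIs in 3 and 4 cells. Cells with switched transcripts were few in both libraries. Mki67, a proliferation gene, had 18 UMIs in Ctrl and 20 in KD. Mitotic genes, 4 in all, were found in 3.45% and 3.71% of B cells after thinning, against 37.3% and 28.1% of Cd3e+ cells.

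A separate group was plasma-like, set by at least 3 UMIs of Jchain, which encodes the chain that joins IgM and IgA into polymers. It held 2 of 209 B cells in Ctrl (0.957%, 0.116 to 3.41) and 6 of 729 in KD (0.823%, 0.303 to 1.78), shares whose intervals overlap. The rule required Cd79a, which these cells held at only 1 to 6 UMIs, and a partner gene. Plasma cells without such UMIs fell outside the rule, so the shares cover only those inside it. Jchain stood at 87 to 262 UMIs in the Ctrl cells and 108 to 386 in the KD cells, and no other B cell had more than 1 UMI. Igkc, the kappa light chain, ran from 596 to 1718 UMIs in the plasma-like cells of Ctrl and from 1438 to 6026 in those of KD, against medians of 11 and 13 in the other B cells. Their total counts of 8033 to 17572 UMIs lay far above the medians of 2690 and 2624 of the others.

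Each plasma-like cell was dominated by 1 heavy chain class. In Ctrl, 1 cell carried 233 UMIs of Igha, the mucosal class, and the other 213 UMIs of Ighg1. In KD, 2 cells carried Ighm at 721 and 540 UMIs, 2 carried Ighg2c at 589 and 675, 1 carried Ighg2b at 1372 and 1 carried Ighg1 at 664. The leading heavy chain and kappa variable segments differed between all 8 cells, with Ighv13-2 and Igkv2-137 in the Igha cell of Ctrl and Ighv14-2 and Igkv4-61 in the Ighg2b cell of KD. The lambda segment Iglv1 was found in all 8, at 58 UMIs in the former against 18 of Igkv2-137, and at 46 in the latter against 31 of Igkv4-61. Variable segments are close in sequence, and how reads were split between them is uncertain. Immunoglobulin genes took between 4.76% and 51.6% of the UMIs of a cell. Xbp1, the secretory transcription factor, was found in all 8 cells at 4 to 30 UMIs. Sec11c, also on the plasma cell list, was found in all 8 cells at 5 to 64 UMIs. Prdm1 and Mzb1 were sparse or absent. Prdm1 had 1 and 3 UMIs in the Ctrl cells and 0 in every KD cell, and Mzb1 had 0 to 3 UMIs per cell. The KD cell with Ighg1 also held 460 UMIs of S100a8, 651 of S100a9 and 53 of Lyz2, genes of granulocytes and monocytes. All 8 plasma-like cells were among those of high Scrublet score, a simulated-doublet score, with 15 of 209 Ctrl and 50 of 729 KD B cells marked in all.

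**Figure D2:**
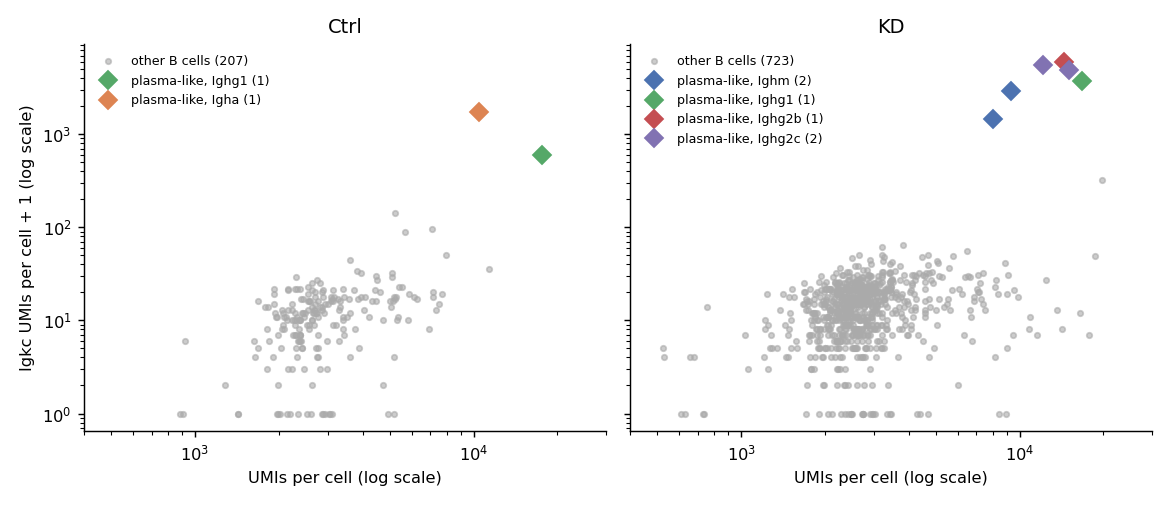
Each point is 1 B cell of the Ctrl (left) or KD (right) library, with total UMIs per cell on the x axis and Igkc UMIs per cell plus 1 on the y axis, both logarithmic; diamonds are plasma-like cells coloured by their main heavy chain. The 2 Ctrl and 6 KD plasma-like cells stand above all other B cells of their library, at 596 to 6026 Igkc UMIs, against at most 142 and 324 in the others.

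These few cells supplied much of the Igkc and switched heavy chain UMIs. Of the Ighm UMIs they supplied 0% in Ctrl and 22.1% in KD, and of the Ighd UMIs 0% in both. Igkc stood at 7214 CPM (UMIs scaled to 1000000 UMIs summed over the B cells of a library) in Ctrl and 15151 in KD, a log2 ratio of KD over Ctrl of 1.07 (1.03 to 1.11), and the plasma-like cells supplied 46.9% and 69.7% of its UMIs. Without them the log2 ratio of Igkc was 0.25. Ighg2c had 2 UMIs in Ctrl and 1265 in KD, a log2 ratio of 7.55 (5.69 to 10.59), of which 1264 came from plasma-like cells. In all other filtered cells, scaled to their own UMIs, Ighg2c stood at 0 CPM in Ctrl and 23.0 CPM in KD. Which of those cells held it was not tested. Ighg2b had 28 and 1396 UMIs (3.88, 3.34 to 4.47), with 1384 of the KD UMIs from plasma-like cells. Without these cells the log2 ratio was −2.44, from 19 and 12 UMIs, with 13 of the 19 in 1 Ctrl cell. Igha had 234 and 3 UMIs (−8.05, −10.33 to −6.48), with 233 from the single Ctrl cell. Slpi, a secreted protease inhibitor, had 275 and 2378 UMIs (1.35, 1.17 to 1.54), and 1350 of the latter were in the Ighg2b cell. Without the plasma-like cells the log2 ratio of Slpi was −0.63, the opposite direction. The differences in Ighg2c, Ighg2b and Igha therefore describe the plasma-like cells, not the B cells of a library.

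Among the other B cells with at least 5 light chain UMIs, lambda chains held more than kappa in 23 of 182 Ctrl cells (12.6%, 8.18 to 18.4) and 59 of 682 KD cells (8.65%, 6.65 to 11.0). The intervals overlap. A mixture, with lambda at 20% to 80% of light chain UMIs, was seen in 36.8% and 39.3% of these cells, although a B cell as a rule expresses 1 light chain, and how much of it was free RNA was not tested. Heavy chain variable segments were caught in 29 Ctrl and 131 KD cells and covered 22 and 59 of the 183 segments in the files. The most frequent, Ighv6-3 in Ctrl and Ighv3-6 in KD, occurred in 4 and 9 cells.

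Gene levels in B cells were then compared between KD and Ctrl, over 4428 genes with at least 100 UMIs in the B cells of both libraries together. The median log2 ratio was −0.06, with 5% of genes below −0.54 and 5% above 0.50. At least 2-fold higher in KD were 57 genes, or 1.29%, and at least 2-fold lower were 22 genes, or 0.497%. Below 0 were 2569 genes, or 58.0% (44.5% with TMM scaling). The minimum on summed UMIs favours genes that are high in the larger KD pool. With a minimum on the mean CPM of both libraries instead, chosen after seeing the data, 40 of 4439 genes were higher and 36 lower. Of the 57 higher genes, 46 had a lower level in KD B cells than in the other cells of the library, and 15 of the 22 lower genes were below the other cells in Ctrl. Most of the 2-fold differences thus lay in genes that other cells carried at a higher level. Without the members that carried any of the 8 genes of other cell types, 24 (0.917%) were higher and 20 (0.764%) lower of 2617 genes.

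Among genes at least as high in B cells as in other cells, the 10 highest in KD were led by the antibody genes and Slpi given above, which rest on the plasma-like cells. The others were low in both libraries. Pdlim1, a cytoskeletal adaptor, had 13 and 95 UMIs (1.11, 0.27 to 2.07), Dcaf17 13 and 93 (1.08), Sav1, a Hippo pathway scaffold, 13 and 92 (1.06), Ankrd37 18 and 124 (1.02), Mxd4, a member of the MAX network of repressors, 17 and 116 (1.01), and Pik3ip1, an inhibitor of PI3K, 18 and 118 (0.95, 0.23 to 1.76). The counting intervals of these genes spanned more than 1 log2 unit. Pdlim1 was also higher in KD in Cd3e+ cells (0.83) and Csf1r+ cells (1.01), and Pik3ip1 in Cd3e+ cells (1.15).

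Among the 10 lowest in KD, with Igha the lowest, Klf4, a quiescence factor of B cells, had 51 and 73 UMIs (−1.24, −1.78 to −0.70) against −0.19 and 0.36 in the other populations. Il5ra, the receptor of the B1 and plasma cell cytokine IL-5, had 46 and 79 UMIs (−0.98, −1.52 to −0.42), and Hdac9, a histone deacetylase, 137 and 238 (−0.96, −1.27 to −0.65) against 0.91 and 0.69. Agbl1 (−1.34), Nopchap1 (−1.27) and Lman1, a cargo receptor of the secretory pathway (−0.96), were also among them, with Fosb and Egr1, which are described below. One Ctrl cell held 19 of the 57 Agbl1 UMIs and 1 KD cell 39 of 76. Of the 42 Lman1 UMIs in Ctrl, the plasma-like cells held 12 and 14. Those of KD held 1 to 13 each of the 73 Lman1 UMIs there.

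Receptor and identity genes differed little. None of 17 genes of the B cell receptor and its signalling was 2-fold different, and the median log2 ratio was −0.01, against −0.06 over all genes. Cd79b stood at 399 and 472 CPM (0.24, 0.05 to 0.44), Syk, the kinase that Cd79 chains recruit, at 715 and 768 CPM (0.10), and Btk at 159 and 151 CPM (−0.08). Pik3ap1, the PI3K adaptor, was the lowest at −0.38. The 15 identity genes ran from −0.45 for Spib to 0.40 for Vpreb3, a surrogate light chain gene, with a median of −0.09. Of 7 measured inhibitory receptor genes, the lowest was Cd72 (−0.23) and the highest Fcgr2b, the IgG Fc receptor (68 and 341 UMIs, 0.57, 0.19 to 0.96), of which 1 KD cell held 50 UMIs. Among 20 transcription factors, Ebf1 (3696 and 3735 CPM, 0.02), Bach2 (1757 and 1763 CPM, 0.00) and Pax5 (501 and 473 CPM, −0.08) had intervals that included 0. Pou2f2, which encodes OCT2, was the highest (68 and 339 UMIs, 0.56, 0.18 to 0.96), Id3 followed (51 and 252 UMIs, 0.55), and Bcl6, the germinal centre repressor, was the lowest (85 and 207 UMIs, −0.48, −0.85 to −0.09).

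**Figure D3:**
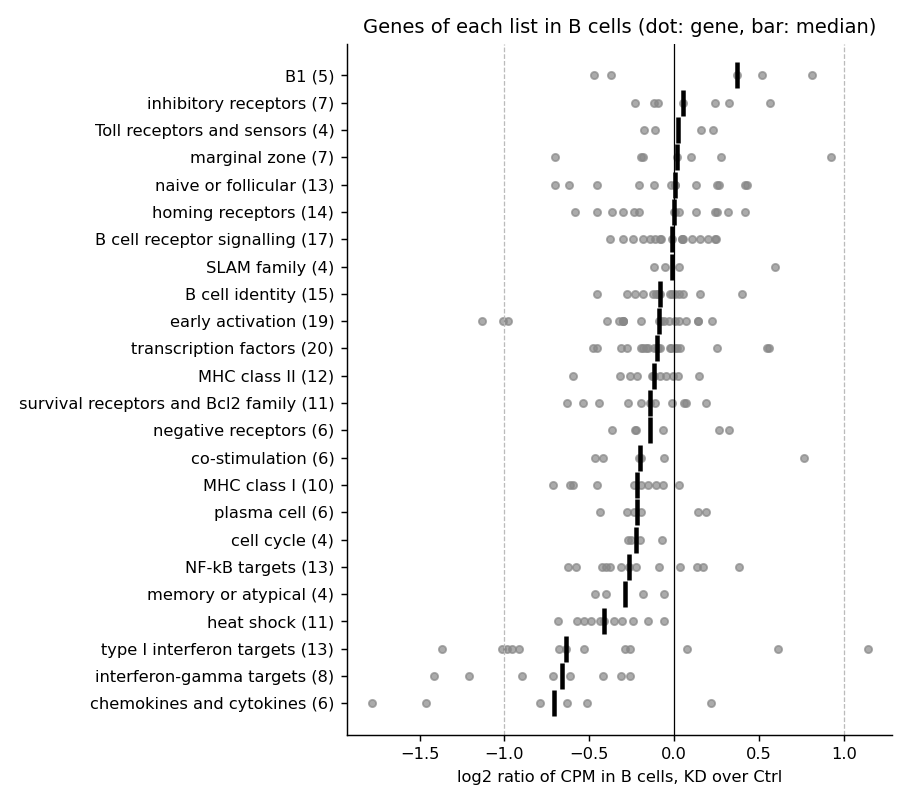
Each dot is the log2 ratio of KD over Ctrl in B cells of 1 gene with at least 100 UMIs, by list (number of genes in parentheses), with a black bar at the list median, a solid line at 0 and dashed lines at 2-fold. Chemokine, interferon-γ and type I interferon genes have the lowest medians drawn, −0.71, −0.66 and −0.64. All 11 heat shock genes lie below 0, against 58.0% of all genes.

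Interferon target genes were lower in KD B cells. Interferon-γ acts through factors that bind GAS elements and induces IRF1 and the immunity-related and guanylate-binding GTPases, whereas type I interferon acts mainly through ISRE elements. Of 21 interferon-γ targets, 8 had at least 100 UMIs, all 8 had a log2 ratio below 0, against 58.0% of all genes, 2 were at least 2-fold lower, against 0.497%, and the median was −0.66, against −0.06. Summed over all 21 genes the level was 1747 CPM in Ctrl (1195 UMIs) and 1094 CPM in KD (2535 UMIs), a log2 ratio of −0.67 (−0.77 to −0.57). Gbp2, a guanylate-binding GTPase, was at 124 CPM in Ctrl and 46.6 CPM in KD (85 and 108 UMIs, −1.41, −1.84 to −0.99). Ifi47, an immunity-related GTPase, was at 90.6 and 39.3 CPM (62 and 91 UMIs, −1.21, −1.69 to −0.72), and Irf1, the transcription factor, at 181 and 97.6 CPM (124 and 226 UMIs, −0.89, −1.22 to −0.57). Gbp7 (−0.71) and Nlrc5, the class I transactivator (−0.61), were also lower. Irf8, which B cells express on their own account, was at −0.31 (−0.54 to −0.08), and Ciita, the class II transactivator, at −0.26 (−0.64 to 0.14). Below 100 UMIs, Irgm1 had 39 and 48 UMIs, Gbp3 32 and 45, Gbp4 37 and 58, Gbp5 30 and 49, Igtp 20 and 37 and Socs1 25 and 23, in libraries whose B cell totals differed by more than 3-fold.

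The start regions of 5 of the listed genes are shown because many interferon-γ targets share letters there. They come from RefSeq on GRCm38.p6, 250 bases before to 50 bases after the annotated start, printed in the direction of transcription, while the counts were made on GRCm39. Capitals mark GAS-like letters, TTCNNNGAA, and a half-repeat of the ISRE, GAAANNGAA, searched on both strands. The 2 motifs can overlap. Gbp2 lies at chr3:142620413-142620712 (+), Igtp at chr11:58199306-58199605 (+), Tgtp1 at chr11:48992197-48992496 (−), Gbp5 at chr3:142496684-142496983 (+), and the first of 2 windows of Irf1 at chr11:53769764-53770063 (+).
Gbp2: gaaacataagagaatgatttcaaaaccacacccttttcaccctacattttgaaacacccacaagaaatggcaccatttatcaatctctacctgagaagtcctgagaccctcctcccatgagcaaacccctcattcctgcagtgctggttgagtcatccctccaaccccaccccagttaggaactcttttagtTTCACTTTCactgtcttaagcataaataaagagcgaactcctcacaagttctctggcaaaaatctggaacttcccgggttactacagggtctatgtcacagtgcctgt
Igtp: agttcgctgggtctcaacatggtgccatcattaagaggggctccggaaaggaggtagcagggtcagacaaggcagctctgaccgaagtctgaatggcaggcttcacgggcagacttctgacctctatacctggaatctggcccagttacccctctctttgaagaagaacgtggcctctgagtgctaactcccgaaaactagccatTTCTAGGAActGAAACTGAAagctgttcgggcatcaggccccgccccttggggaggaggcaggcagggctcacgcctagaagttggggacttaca
Tgtp1: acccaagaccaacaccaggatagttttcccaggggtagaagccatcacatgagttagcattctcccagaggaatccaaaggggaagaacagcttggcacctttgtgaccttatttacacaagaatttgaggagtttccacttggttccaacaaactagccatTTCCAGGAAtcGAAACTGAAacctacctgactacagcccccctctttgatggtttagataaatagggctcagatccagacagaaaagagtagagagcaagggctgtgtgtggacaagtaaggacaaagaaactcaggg
Gbp5: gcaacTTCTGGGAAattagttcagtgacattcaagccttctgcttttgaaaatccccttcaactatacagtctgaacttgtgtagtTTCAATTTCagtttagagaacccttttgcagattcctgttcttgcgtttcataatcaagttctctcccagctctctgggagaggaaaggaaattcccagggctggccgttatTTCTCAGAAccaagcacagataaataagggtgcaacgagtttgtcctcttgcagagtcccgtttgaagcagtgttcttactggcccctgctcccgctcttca
Irf1: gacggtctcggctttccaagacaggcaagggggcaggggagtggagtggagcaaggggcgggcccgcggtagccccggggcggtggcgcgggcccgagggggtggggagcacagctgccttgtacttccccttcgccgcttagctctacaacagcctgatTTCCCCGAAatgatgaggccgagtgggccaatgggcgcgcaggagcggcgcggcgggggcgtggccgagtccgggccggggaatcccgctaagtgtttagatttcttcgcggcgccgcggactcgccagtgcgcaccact

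Igtp and Tgtp1 each held a GAS-like match followed after 2 bases by an ISRE half-repeat, and Gbp5 held 2 GAS-like matches and 1 half-repeat. Gbp2 held a half-repeat on the opposite strand and no GAS-like match, and Irf1 the reverse, a GAS-like match alone. The window of Ifi47 held neither. Of the 14 interferon-γ targets that matched the table, 8 (57.1%) held the GAS-like letters and 11 (78.6%) the ISRE half-repeat, against 9.55% and 9.76% of 27025 genes. Of 26 matched type I targets, 4 (15.4%) and 15 (57.7%) did, and of 9 matched heat shock genes none held either. The lists were made of known interferon targets, so these shares describe the lists and not the B cells.

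Of 36 type I interferon targets, 13 had at least 100 UMIs, 10 of them below 0 (58.0% of all genes), with a median of −0.64. At least 2-fold lower were 2 (0.497% of all genes) and at least 2-fold higher was 1 (1.29% of all genes). Ifi27l2a was at 365 and 142 CPM (250 and 328 UMIs, −1.37, −1.61 to −1.12). Isg15, a ubiquitin-like modifier, had 43 and 75 UMIs (−0.96), Stat2 42 and 72 (−0.98), and Ly6a, the Sca-1 antigen, 184 and 330 (−0.92, −1.18 to −0.65). Slfn1, a growth-regulating Schlafen gene, went the other way, with 13 and 97 UMIs (1.14, 0.30 to 2.10).

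The same lists were lower in the other populations to different degrees. The interferon-γ sum had a log2 ratio of −0.27 in Cd3e+ cells and −0.99 in Csf1r+ cells, and the type I sum −0.12 and −0.77, against −0.58 in B cells. Ifi47 was at 0.01 in Cd3e+ cells and −1.10 in Csf1r+ cells, Gbp2 at −0.31 and −1.11. Levels in Ctrl B cells were 23.8% of those in Csf1r+ cells for Gbp2, 43.8% for Ifi47 and 52.5% for Irf1. For macrophage genes they were 3.67% for C1qa, 7.03% for Lyz2 and 17.3% for Apoe. Without the members carrying any of the 8 genes of other cells, the interferon-γ sum was at −0.58 (−0.74 to −0.42), the median of the same 8 genes at −0.54 with 7 of 8 below 0, Gbp2 at −1.34, Ifi47 at −1.69 and Irf1 at −1.26, and the type I sum at −0.56. These values had the same sign as those over all members.

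Counted per cell, 46.8% of Ctrl B cells and 26.7% of KD B cells held a UMI of the 15 GTPase genes after thinning, a difference of −20.1 percentage points (−27.9 to −12.3). The shares were 49.2% and 48.4% in Cd3e+ cells and 90.1% and 63.4% in Csf1r+ cells. Without thinning they were 60.3% and 40.7% of B cells, and 3 or more UMIs were found in 24.4% and 9.60%. No single cell decided this, since the highest held 28 of 451 UMIs in Ctrl and 26 of 731 in KD. Without the members carrying any of the 8 genes of other cells the difference was −11.5 points. Irf1 was detected in 19.2% and 9.71%, Ly6a in 28.1% and 15.6% and Ifi27l2a in 27.6% and 16.6% of thinned B cells.

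**Figure D4:**
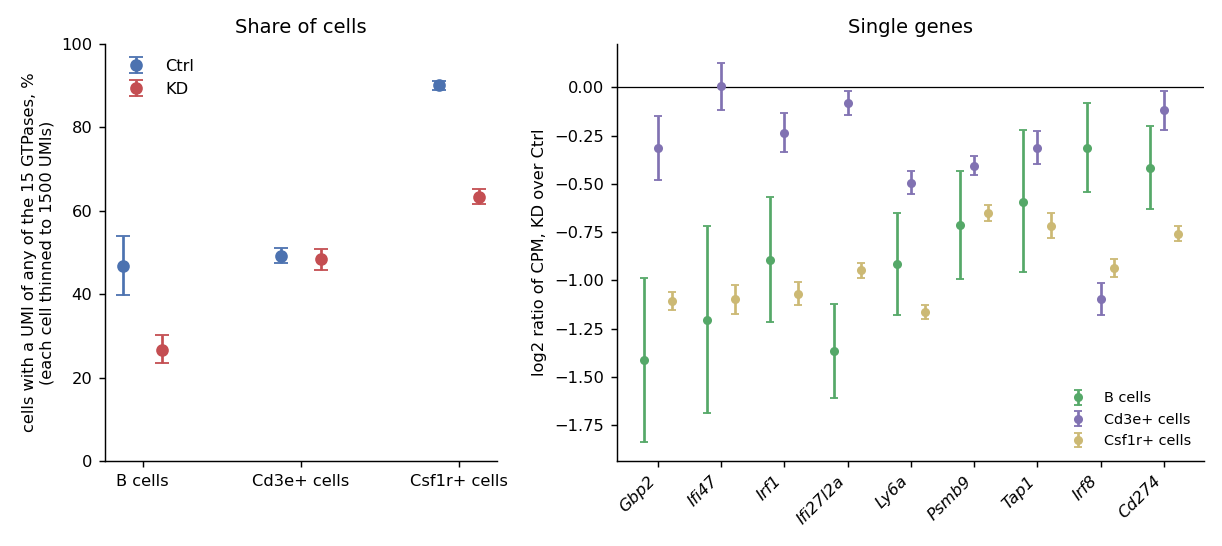
Left, percent of B cells, Cd3e+ cells and Csf1r+ cells with a UMI of any of the 15 GTPase genes after thinning to 1500 UMIs; right, log2 ratio of KD over Ctrl for 9 genes in the same populations; bars are 95% intervals of counting error. The GTPase share is 46.8% and 26.7% in Ctrl and KD B cells and 49.2% and 48.4% in Cd3e+ cells, and all 9 genes lie below 0 in B cells and in Csf1r+ cells.

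Among antigen presentation genes, the MHC class II chains were close to equal in both libraries, with H2-Aa at 2662 and 2708 CPM (0.02, −0.05 to 0.10), H2-Ab1 at 1746 and 1688 (−0.05) and H2-Eb1 at 2615 and 2600 (−0.01). Cd74, the invariant chain, was slightly higher in KD at 4747 and 5254 CPM (0.15, 0.09 to 0.20). None of the 12 class II genes was 2-fold different, and Ifi30, an interferon-inducible reductase of the endosome, was the lowest (190 and 426 UMIs, −0.59, −0.84 to −0.34). In the class I list, 9 of 10 genes were below 0 (58.0% of all genes), none 2-fold, with a median of −0.22. The chains H2-D1 (914 and 930 CPM, 0.03) and B2m (1436 and 1374 CPM, −0.06) stood close to 0, whereas the immunoproteasome subunits Psmb9 (161 and 332 UMIs, −0.72, −0.99 to −0.44) and Psmb8 (−0.46) and the peptide transporter Tap1 (91 and 204 UMIs, −0.60) were lower. Cd86, a ligand of CD28 on T cells, was lower at 522 and 378 CPM (357 and 876 UMIs, −0.46, −0.64 to −0.28), and was found in 44.3% and 31.7% of thinned B cells (a difference of −12.6 points, −20.5 to −4.80). Cd83 was at −0.20, and Icosl, the ICOS ligand, was higher at 17 and 98 UMIs (0.77, 0.02 to 1.60). Cd80 and Cd40 were sparse, with 13 and 62 and with 28 and 82 UMIs. Cd274, the gene of PD-L1, was at 367 and 275 CPM (−0.42, −0.63 to −0.20), Tgfb1 at −0.36, and Il10 had 17 UMIs in Ctrl and 19 in KD. Without plasma-like members Cd274 was at −0.28 (−0.50 to −0.05), and without cells of high Scrublet score at −0.24 (−0.50 to 0.02). The share of thinned B cells with a Cd274 UMI differed by −6.83 points (−14.3 to 0.259), an interval that included 0.

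Immediate early genes, which answer within minutes to receptor signalling and also to tissue dissociation, were lower for a few members. Of 19 measured, 13 were below 0, near the share of all genes, with a median of −0.09. At least 2-fold lower were 2, against 0.497% of all genes, and none was 2-fold higher. Fosb was at 254 and 116 CPM (174 and 269 UMIs, −1.13, −1.41 to −0.85), Egr1 at 124 and 61.7 CPM (−1.01, −1.41 to −0.60) and Nr4a2 at 126 and 63.9 CPM (−0.98, −1.37 to −0.58). Nr4a1, a reporter of receptor engagement, was at −0.32, Cd69 at −0.30, and Dusp2 was the highest at 0.22. Fosb was found in 26.1% of Ctrl and 11.3% of KD B cells after thinning, a difference of −14.8 points (−21.8 to −8.38). In Cd3e+ and Csf1r+ cells Fosb was at −0.31 and −0.60. Without members carrying any of the 8 genes of other cells it was at −1.02 and Egr1 at −0.81.

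Of 13 NF-κB targets, 9 were below 0, near the share of all genes, with a median of −0.27, and none was 2-fold different. Tnfaip3, which encodes the feedback inhibitor A20, was at 184 and 123 CPM (126 and 286 UMIs, −0.58, −0.88 to −0.26), Nfkb1 at 522 and 395 CPM (−0.40, −0.58 to −0.22) and Traf1 at −0.63, while the adhesion gene Icam1 was the highest at 0.38 (−0.14 to 0.94). Of 11 measured heat shock genes, 11 were below 0, against 58.0% of all genes, and none was 2-fold lower. The median was −0.41, against −0.06 over all genes. Hspa1a was at 2320 and 1442 CPM (−0.69, −0.77 to −0.60), Hspa1b at 2870 and 1932 CPM (−0.57), Hsp90aa1 at 936 and 666 CPM (−0.49) and Hspa8, the constitutive member, at 611 and 585 CPM (−0.06). The summed list was at −0.44 in B cells, −0.55 in Cd3e+ cells and −0.34 in Csf1r+ cells, so the sum was lower in all 3 populations. The share of thinned cells with a Hspa1a UMI differed by −2.56 points in B cells (−10.6 to 5.44), an interval that included 0. It differed by −20.8 points in Cd3e+ cells and −17.3 in Csf1r+ cells. For Hspa1b the differences were −8.35 (−16.2 to −0.298), −21.2 and −14.6 points. Without members carrying any of the 8 genes of other cells the sum in B cells was at −0.18 (−0.24 to −0.13), with 8 of 11 genes below 0.

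Genes of naive recirculating cells differed in direction. Of 13 measured, none was 2-fold different and the median was 0.00. Ighd was at 360 and 485 CPM (246 and 1123 UMIs, 0.43, 0.23 to 0.64) and Klf2, which holds lymphocytes in circulation, at 497 and 591 CPM (0.25, 0.08 to 0.43). Cr2, the complement receptor CD21, was at 158 and 97.1 CPM (108 and 225 UMIs, −0.70, −1.04 to −0.36), Fcer2a, the IgE receptor CD23, at 154 and 99.7 CPM (105 and 231 UMIs, −0.62, −0.96 to −0.28), and Cxcr5, the receptor for the follicle chemokine, at 162 and 118 CPM (−0.46, −0.78 to −0.12). The same directions held without members carrying any of the 8 genes of other cells, with Cr2 at −0.78, Fcer2a at −0.66, Cxcr5 at −0.29 and Ighd at 0.43. Per cell after thinning, Cr2 or Fcer2a was found in 77 of 203 Ctrl and 175 of 700 KD B cells (−12.9 points, −20.7 to −5.43), Ccr7, the lymph node homing receptor, in 22.2% and 30.0% (7.83, 0.644 to 14.4), and Ighd in 45.3% and 51.7% (6.39, −1.66 to 14.3). The interval for Ighd included 0.

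**Figure D5:**
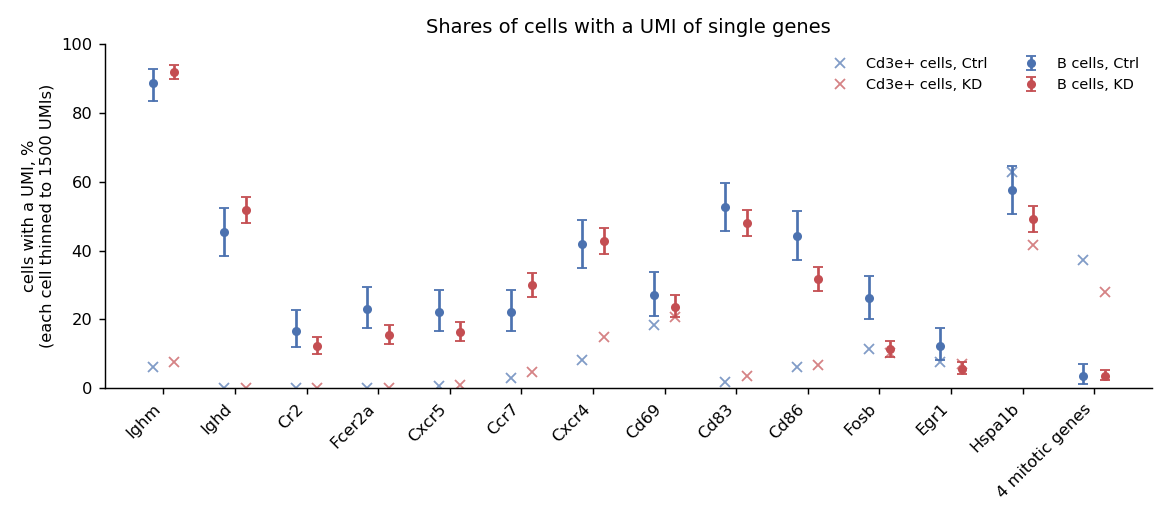
Percent of B cells (points, with exact 95% intervals of counting error) and of Cd3e+ cells (crosses) with a UMI of each gene, or of any of 4 mitotic genes, after thinning every cell to 1500 UMIs, for Ctrl and KD. In B cells Fosb stands at 26.1% in Ctrl and 11.3% in KD and Cd86 at 44.3% and 31.7%, while Ccr7 stands at 22.2% and 30.0%.

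Of 14 homing genes the median was 0.00, with Itgb7, the gut homing integrin chain, lowest (31 and 70 UMIs, −0.58, −1.21 to 0.07). Cxcr4, the bone marrow retention receptor, was at 319 and 397 CPM (0.32, 0.10 to 0.54), yet was found in 41.9% and 42.9% of thinned cells. Among 11 survival genes, Tnfrsf13b, which encodes the BAFF and APRIL receptor TACI, was the lowest (49 and 107 UMIs, −0.63, −1.13 to −0.11), Bcl2 the highest (0.19, −0.09 to 0.47), and Tnfrsf13c, the BAFF receptor gene, was at −0.14 (−0.52 to 0.25). Marginal zone and B1 genes gave 1 gene of note each. Cd9 had 51 and 327 UMIs (0.92, 0.49 to 1.38) but was found in 6.90% and 6.86% of thinned cells. S100a6 had 266 and 1579 UMIs (0.81, 0.62 to 1.00), of which 1 KD cell held 200, and was found in 15.8% and 15.7% of thinned cells. Without members carrying any of the 8 genes of other cells Cd9 was at 0.58 and S100a6 at 0.33. Other lists had no gene at 2-fold: 6 plasma cell genes had a median of −0.22, 4 memory or atypical genes −0.29 with Cd86 lowest, 4 Toll-like receptor and sensor genes 0.02, 6 adenosine and negative receptor genes −0.14, 4 cell cycle genes −0.23, and the 2 germinal centre genes with enough UMIs were Bcl6 (−0.48) and Basp1 (−0.41).

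Chemokine genes were the list with the lowest median, −0.71 over 6 genes, against −0.06 over all genes. At least 2-fold lower were 2 of them, against 0.497% of all genes. Cxcl9, which draws CXCR3-bearing T cells, had 65 and 64 UMIs (−1.78, −2.30 to −1.26), Cxcl10 91 and 178 (−0.79, −1.16 to −0.41) and Ccl5 162 and 199 (−1.46, −1.77 to −1.15). In Ctrl, 1 cell held 44 of the Cxcl10 UMIs and 1 cell 76 of the Ccl5 UMIs, and in KD 1 cell held 94 and 1 cell 64. These genes were far higher in other cells. B cell levels of Cxcl9 were 6.40% and 4.95% of those in Csf1r+ cells, Cxcl10 10.6% and 16.9%, and Ccl5 8.27% and 2.28% of those in Cd3e+ cells. In members without a UMI of the 8 genes of other cells, Cxcl9 was at −3.05 (23 and 11 UMIs) and Cxcl10 at −3.86 (66 and 18 UMIs). The Ctrl cell with 44 Cxcl10 UMIs was among these members and the KD cell with 94 was not, so this Cxcl10 value depends on single cells. Ccl5 was at 0.35 (−0.41 to 1.19), the opposite direction with an interval that included 0. Ltb, which encodes lymphotoxin beta of lymphoid tissue organisation, was the highest at 0.22 (−0.01 to 0.45).

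SLAM family receptors are homophilic adhesion and signalling molecules of lymphocytes, and SLAMF3, the target of the hairpin in the tumour cells, is one of them. In the host B cells Ly9 had 21 UMIs in Ctrl and 66 in KD, a log2 ratio of −0.11 (−0.83 to 0.68). Of the 4 members with at least 100 UMIs, Slamf6 was at −0.12 (−0.58 to 0.36) and Cd84 was the highest with 38 and 194 UMIs (0.59, 0.08 to 1.13), and none was 2-fold different. The tumour cells themselves were not examined here, so these values say nothing of the knockdown.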

How the data were processed

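CD45+ cells of liver metastases were profiled as 1 library per group, Ctrl and KD, grouped by the shScramble or shSLAMF3 label. The deposited matrices hold UMI counts per gene and barcode, not normalized, made by the authors with Cell Ranger 7.1.0 on GRCm39; Seurat 5.1.0 and R 4.4.1 are also named in the submitters' processing notes. The 56941 features were used as deposited. The study's limits of 30000 UMIs and 6000 genes, meant against doublets, were part of the filter used here, which left 9814 of 10416 barcodes in Ctrl and 10185 of 10943 in KD. Cells of high Scrublet score (scanpy 1.11.5, 0.8% per 1000 cells) were left out as an alternative only, and no correction for free RNA was made.

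B cells were chosen by the marker rule given above, and Cd3e+ cells (0 UMIs of Cd79a and Csf1r) and Csf1r+ cells (0 UMIs of Cd79a and Cd3e) served for comparison. UMIs were summed over the B cells of each library and scaled to CPM, with exact Poisson intervals per gene and exact conditional binomial 95% intervals for ratios. Shares carry Clopper-Pearson intervals, and limits of a difference of shares were combined from those. For shares with a UMI, each cell was thinned to 1500 UMIs, which left out 6 of 209 Ctrl and 29 of 729 KD B cells. Genes with at least 100 UMIs in both libraries together were compared, with 2-fold as the limit, and no p-value was computed. Named genes were the list members with at least 100 UMIs, always with the highest and lowest of a list, and the 10 highest and 10 lowest ratios (0.5 CPM added for ranking) among genes at least as high in B cells as in all other cells, without mitochondrial, ribosomal, variable segment, sex and unnamed genes. The members and lists were chosen with earlier results of these data known. The scripts were tested on simulated data. Depth was 684057 UMIs over the Ctrl B cells and 2316576 over the KD B cells, and intervals cover counting error only. Sequences are those of RefSeq on GRCm38.p6, matched by symbol. Python 3.11.15, numpy 2.4.6, scipy 1.17.1, pandas 2.3.3, R 4.3.3 and edgeR 4.0.16 (TMM scaling only) were used. Alternatives covered the cell filter, the marker rule, doublets, members with any of 8 genes of other cells, plasma-like members, scaling, the UMI minimum and the thinning depth. Some list members and ranked genes are not reported here by name, though they remain in the counts and medians.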

Additional observations from a re-analysis of the deposited data

Results flagged for a closer look

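Of 122 listed genes with at least 50 CPM in Cd3e+ cells of both libraries, 11 had log2 ratios of KD over Ctrl with opposite signs in B cells and Cd3e+ cells, with both counting intervals away from 0. With 1 library per group, the difference between the populations was not tested for any of them. Lower in KD B cells and higher in KD Cd3e+ cells were Lyn, an inhibitory and activating kinase, at −0.14 and 0.55, Cd69 at −0.30 and 0.34, Fos at −0.39 and 0.15, Nfkb1 at −0.40 and 0.32, Tnfaip3 at −0.58 and 0.44, Nfkbiz at −0.32 and 0.30, Bcl2l11, which encodes the death protein BIM, at −0.44 and 0.20, and Itga4, an integrin chain, at −0.37 and 0.10. For the share of thinned cells with a UMI, the difference for Cd69 was −3.38 points in B cells (−10.7 to 3.47) and 2.30 in Cd3e+ cells (−0.125 to 4.77), and that for Fos 1.37 in Cd3e+ cells (−0.619 to 3.42), intervals that include 0. Anxa2 (0.52 and −0.42) and Ly6c2 (0.61 and −0.18) were higher in KD B cells and lower in KD Cd3e+ cells. Ccl5 was at −1.46 and 0.40, and its level in B cells was 8.27% of that in Cd3e+ cells in Ctrl and 2.28% in KD.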

How the results depend on the processing

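No paired analysis was possible because each group had 1 library, and for the same reason no replicate could be left out. The share of B cells kept its direction under all 7 alternatives, with a log2 ratio of 1.66 to 2.00 against 1.75, and 2.00 was the value per cell with under 3 granulocyte UMIs. The 57 genes at least 2-fold higher in KD became 24 without members that carried the 8 genes of other cells, 25 without cells of high Scrublet score, 461 at a minimum of 20 UMIs and 11 at 500, and the 22 lower genes 227 and 2 at those minimums. Without both plasma-like members and members with those genes, an alternative chosen after seeing the data, the counts were 20 and 13. With a minimum on the mean CPM of both libraries, also chosen after seeing the data, they were 40 and 36, and the interferon-γ median was −0.80. With TMM scaling, which shifts every log2 ratio by 0.09, they were 68 and 17. The heat shock median of −0.41 was −0.47 with the strict cell filter, −0.17 without members that carried the 8 genes of other cells, −0.32 with TMM scaling, −0.46 without plasma-like members and −0.19 without both. The interferon-γ median of −0.66 was −0.32 without members that carried the 8 genes of other cells, −0.31 without cells of high Scrublet score, −0.88 at 20 UMIs, −0.37 at 500 UMIs and −0.33 without both kinds of members, where the genes past the minimum also differed. Over the same 8 genes it was −0.54 and −0.51 for the first 2 of these. The type I median of −0.64 was −0.80 without plasma-like members and −1.14 at 500 UMIs. The difference in the share of B cells with a GTPase UMI, −20.1 points, was −11.5 without members that carried the 8 genes of other cells. Where other causes could act, the cause was not tested. Ighg2b reversed to −2.39 without cells of high Scrublet score, −2.44 without plasma-like members and −3.27 without both kinds of members. Ighg2c reversed to −2.73 and −2.77 in the first 2 of these, and Slpi to −0.12, −0.63 and −2.34. Without plasma-like members, Ighg2b had only 19 UMIs in Ctrl and 12 in KD, and Ighg2c only 2 and 1. Of 621 ratios of single genes recomputed under the alternatives, 547 stayed within the counting interval of the value given above. Depth limits genes under 100 UMIs, whose values are given as counts.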

Other observations

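Several small housekeeping genes were lower in KD in all 3 populations compared. The log2 ratios in B cells, Cd3e+ cells and Csf1r+ cells were −1.47, −1.07 and −0.79 for Sec61g, a translocon subunit, −1.02, −0.98 and −0.87 for Atp5l, an ATP synthase subunit, −1.16, −0.87 and −0.70 for Rpl36al, and −1.09, −0.72 and −0.39 for Rps27l. For Rps27l, 1 Ctrl B cell held 54 of the 169 UMIs, and a UMI was found in 28.7% of Ctrl and 23.0% of KD B cells. All 4 genes were chosen after their values were seen. In contrast, Crip1, a LIM domain gene, was lower in KD B cells (186 and 301 UMIs, −1.07) and higher in Cd3e+ cells (0.07) and Csf1r+ cells (0.69).

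Plasma-like cells had little of the B cell surface program: Cd74 stood at 5 to 26 UMIs per cell, Ms4a1 at 0 or 1 and Ighd at 0 in all 8. Sdc1, which encodes the plasma cell antigen CD138, was found in 6 of the 8 at 1 or 2 UMIs.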
